A study of Homo sapiens with 38 samples.

Results

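The first 2 h of interleukin 1 beta (IL1B) in control A549 cells were followed across the whole array by setting the 4 arrays of control cells collected at 2 h against the 4 arrays of control cells collected at 0 h, 8 of the 38 arrays of the study. A549 is a human lung adenocarcinoma line that is widely used as a model of alveolar epithelium. The study depleted ORMDL3, an endoplasmic reticulum protein that restrains the first step of sphingolipid synthesis, with a pool of siRNAs. Cells of the 2 h group were in the control arm, spent 48 h in the silencing step and 24 h without serum, and then received 1 ng/ml IL1B for 2 h. Cells of the 0 h group were in the same arm, had the same 48 h and 24 h, and were collected without IL1B. The labels call this arm only control and do not state what, if anything, its cells were transfected with. No untreated array at 2 h was analysed here, so IL1B and a further 2 h in culture cannot be told apart. The cells were grown at high passage numbers, and no label states whether replicates came from separate cultures, so that the p-values rest on a spread between arrays that may be technical. Used for comparison were control arrays at 4 h (n = 4), 8 h (n = 3) and 10 h (n = 4) of IL1B and 7 arrays of ORMDL3 knockdown cells, 4 at 2 h and 3 at 0 h.

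IL1B binds IL1R1 and its coreceptor, which recruit MYD88, IRAK kinases and TRAF6. The kinases downstream mark the IkB proteins for destruction and so free NF-kB, a family of dimeric transcription factors held in the cytoplasm by IkB, and they also start MAP kinase cascades that act on AP-1. In airway epithelium this pathway is known for the rapid output of chemokines, adhesion molecules and its own inhibitors.

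Expression was given as log2 levels of 14488 probe sets. Called here means an adjusted p under 0.05 in limma, with Benjamini-Hochberg adjustment over all probe sets, and "rose" or "fell" is used only of called ones. Differences are log2, 2 h minus 0 h, ± the standard error of the model, and 1 unit is a doubling. At 2 h, 1488 probe sets rose (10.3%) and 1416 fell (9.77%), so that 20% were called in either direction, and 4388 had an unadjusted p under 0.05. The rises were larger than the falls. At least 2-fold changes were seen for 312 probe sets that rose and 51 that fell, at least 4-fold for 95 and 2, and at least 16-fold for 17 that rose. The typical called change was small, with a median size of 0.41, and the median over all probe sets was -0.03. For 3230 probe sets (22.3%), all 2 h arrays lay on 1 side of all 0 h arrays.

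The arrays were alike in overall level, with medians between 8.10 and 8.15. Pairs of 2 h arrays correlated at 0.989 to 0.996 across probe sets, pairs of 0 h arrays at 0.991 to 0.994, and pairs with 1 array of each group at 0.968 to 0.975. Of 14 epithelial markers, 11 were measured, and their mean was 9.91 to 10.00 at 2 h and 9.95 to 10.04 at 0 h, above each array's upper quartile of 9.48 to 9.55. The claudin CLDN1 rose (0.88 ± 0.06), while the claudin CLDN3 (-0.38 ± 0.08) and the keratin KRT19 (-0.31 ± 0.09) fell, KRT19 not without the 0 h array numbered 4. With the replicate number as a block, 5 epithelial markers fell. Of 11 alveolar markers 3 were measured, and the surfactant protein genes and NKX2-1 were not analysed here. Leukocyte markers were measured for 4 of 11, without PTPRC, and averaged 7.54 to 7.61 at 2 h and 7.51 to 7.57 at 0 h. The 2 measured of 11 fibroblast and endothelial markers averaged 6.43 to 6.52 at 2 h and 5.79 to 6.27 at 0 h, with a rise of the endothelial cadherin CDH5 (0.96 ± 0.11), and their part in the results below was not tested. The mean over 115 small nucleolar RNA probe sets was 7.13 to 7.49 at 2 h and 6.88 to 7.32 at 0 h, with 8 risen (6.96%, beside 10.3% of all probe sets) and 1 fallen (0.87%, beside 9.77%), and its part in the results was not tested beyond a fit with that mean as a covariate.

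**Figure D1:**
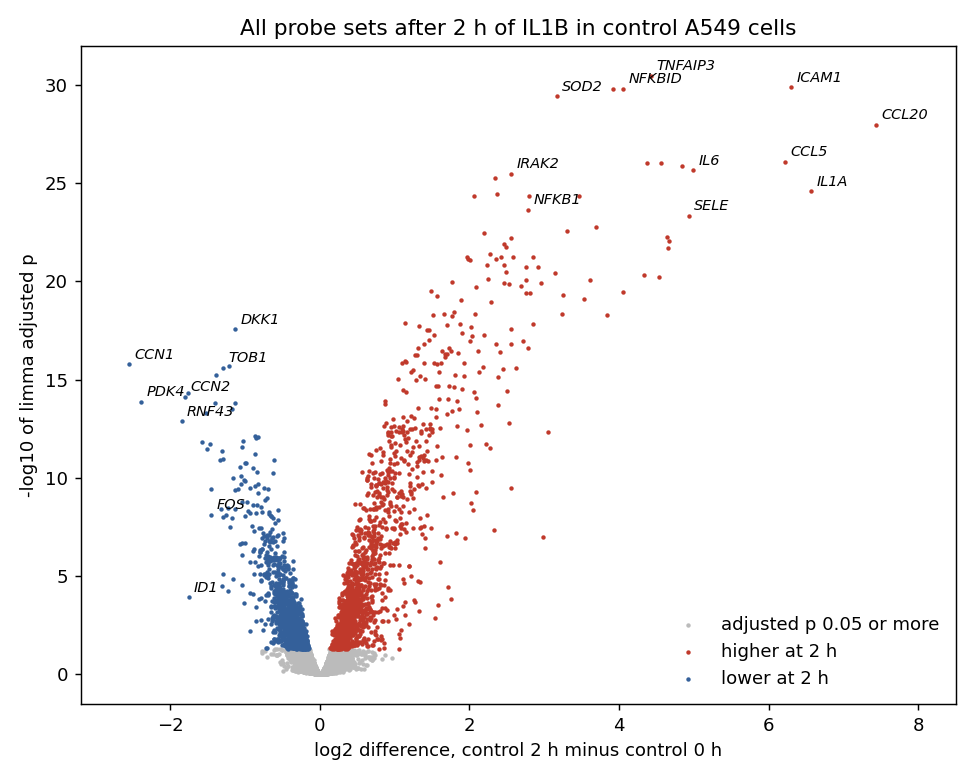
Each point is 1 of 14488 probe sets, with the log2 difference of control 2 h minus control 0 h on the horizontal axis and −log10 of the limma adjusted p on the vertical axis. The 1488 probe sets that rose extend to 7.44 (CCL20), and the 1416 that fell extend to -2.55 (CCN1).

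The largest rise was that of CCL20, a chemokine that draws CCR6-bearing lymphocytes and dendritic cells. CCL20 read 12.61, 12.63, 12.48 and 12.41 on the 2 h arrays, against 4.82, 4.88, 5.24 and 5.43 on the 0 h arrays, a difference of 7.44 ± 0.15 or 173-fold (limma adjusted p = 1.06e-28). No array of either group came near the other group. CCL5, which attracts T cells and eosinophils, read 11.15, 10.93, 10.64 and 10.60 at 2 h and 4.85, 4.43, 4.94 and 4.21 at 0 h, which is 74.9-fold. At 0 h both CCL20 and CCL5 lay below the lower quartile of each 0 h array (6.61 to 6.66). Their folds therefore depend on readings at the low end of the scale. Of the 14 chemokines measured, 12 rose and none fell (85.7% called, beside 20% of all probe sets), with a median difference of 2.59. The neutrophil attractants on CXCR2 rose by 3.69 (CXCL2), 3.30 (CXCL8), 3.25 (CXCL3), 2.02 (CXCL5) and 0.50 (CXCL6). CXCL8 was already readable before the cytokine, at 12.81, 12.91, 12.62 and 12.96 on the 2 h arrays and 9.56, 9.69, 9.39 and 9.47 on the 0 h arrays. The monocyte attractant CCL2 rose by 2.79 ± 0.08 and CX3CL1, a membrane-bound chemokine, by 3.24 ± 0.14. CXCL10, a chemokine usually tied to interferon, rose by 2.27 ± 0.18. It read 6.30, 6.34, 6.22 and 5.81 at 2 h and 3.91, 3.71, 3.95 and 4.03 at 0 h. Both groups lay below the lower quartile of their arrays, as did both groups of IRAK3 and CD69, named below. CXCL16, a membrane-bound chemokine, did not pass the test (-0.05 ± 0.08).

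Among 28 cytokines and growth factors measured, 18 rose and 3 fell (75% called, beside 20% of all probe sets), with a median of 1.09. IL1A, the other agonist of the IL1 receptor, read 11.33, 11.40, 11.13 and 11.12 at 2 h against 4.62, 4.85, 4.46 and 4.79 at 0 h (94.6-fold). These 0 h readings also lay below the lower quartile of each 0 h array. IL1B itself rose by 4.67 ± 0.15, so that both ligands of the receptor were higher after the cells had been given 1 of them. IL6, which drives the acute-phase response, read 10.69, 10.37, 10.39 and 10.48 at 2 h and 5.38, 5.50, 5.53 and 5.56 at 0 h, a difference of 4.99 ± 0.12. CSF3, the granulocyte growth factor, rose 20.2-fold, and IL32, IL23A and CSF1 rose by 2.96, 2.16 and 2.06. At 0 h IL1B, IL6, CSF3, IL32 and IL23A also lay below the lower quartile of each 0 h array. So did, among other genes named below, SELE, PTX3, TNFAIP6, OLR1, STX11 and TNFRSF9. All these differences depend on readings at the low end of the scale. Smaller rises were seen for the EGF receptor ligand HBEGF (1.33), the IL6-type cytokine LIF (1.25) and the angiogenic factor VEGFA (1.14). The 3 that fell were GDF15, a stress-induced member of the TGF-beta family (-0.66 ± 0.09), BMP4 (-0.53 ± 0.16) and the vasoconstrictor EDN1 (-0.20 ± 0.07). BMP4 lost its call without the 0 h array numbered 3 or the 2 h array numbered 4, and EDN1 without the 0 h array numbered 2 or 3, without the 2 h array numbered 1 or 2, and when only the 8 arrays were fitted.

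**Figure D2:**
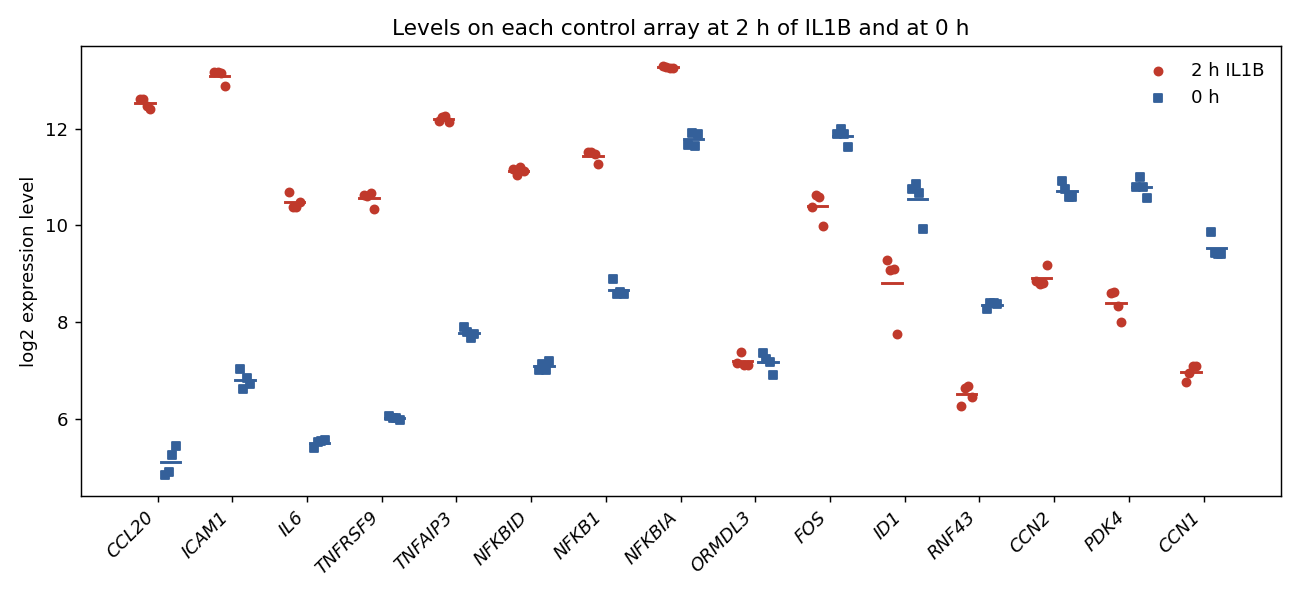
Points are the log2 levels of 15 genes on the 4 control arrays at 2 h (circles, left of each pair) and the 4 at 0 h (squares, right), and bars are group means. The groups stand apart for every gene drawn except ORMDL3, whose levels of 7.11 to 7.38 at 2 h lie within 6.91 to 7.36 at 0 h or just above.

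All 11 measured genes for NF-kB subunits and IkB proteins rose, with a median of 2.34, against 10.3% of all probe sets. NFKBID, a nuclear IkB protein, read 11.16, 11.05, 11.21 and 11.13 at 2 h and 7.01, 7.12, 7.002 and 7.18 at 0 h, a difference of 4.06 ± 0.07. Of the subunits, NFKB1, the precursor of p50, read 11.52, 11.51, 11.47 and 11.28 at 2 h against 8.88, 8.58, 8.62 and 8.58 at 0 h, and REL read 10.90, 11.01, 10.91 and 10.997 against 8.40, 8.45, 8.43 and 8.60. Both groups were tight, and the differences were 2.78 ± 0.08 for NFKB1 and 2.49 ± 0.08 for REL. RELB and NFKB2, the pair of the non-canonical branch, rose by 2.36 and 2.23. RELA, the main activating subunit, had the smallest rise of the 11 (0.48). NFKBIA, the IkB alpha protein that ends a pulse of NF-kB, was high in both groups, at 13.30, 13.29, 13.25 and 13.26 at 2 h and 11.66, 11.92, 11.65 and 11.90 at 0 h (1.49 ± 0.06). The IkB relatives NFKBIE and NFKBIZ rose by 2.47 and 2.34.

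On a list of 15 genes, mainly for ubiquitin enzymes and adaptors around NF-kB, 14 rose and none fell, with a median of 1.67. The share called was 93.3%, beside 20% of all probe sets. This list also held TNFAIP2 (2.37) and TNFAIP8 (1.80), which are neither and are counted among the rises. The ubiquitin-editing enzyme A20, gene TNFAIP3, is a central brake of the pathway and read 12.16, 12.25, 12.27 and 12.15 at 2 h against 7.89, 7.80, 7.67 and 7.76 at 0 h (4.43 ± 0.07, 21.5-fold). Its partner TNIP1 rose by 1.89 and the deubiquitinase CYLD by 1.67. TIFA, an adaptor that activates TRAF6, rose by 2.92 ± 0.11, the ubiquitin ligase BIRC2 by 1.62 and TRAF1 by 2.55 ± 0.12. OTULIN, which removes linear ubiquitin, was the 1 that did not pass (0.26 ± 0.11, limma adjusted p = 0.0922), although it passed without the 0 h array numbered 1 or the 2 h array numbered 4, with array weights, and with the replicate number as a block (limma adjusted p = 0.0419).

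Of 17 genes of proximal IL1 signalling, 6 rose and 2 fell (47.1% called, beside 20% of all probe sets), with a median of 0.09. IRAK2, a kinase that prolongs the signal, rose by 2.55 ± 0.06, and IRAK3, which restrains it, by 1.78 ± 0.18. MAP3K8, the kinase that links NFKB1 to the ERK pathway, rose by 1.70 ± 0.09, while TRAF6 rose by only 0.33. The receptor IL1R1 fell by 0.30 on the log2 scale, with 8.71, 8.92, 8.70 and 8.34 at 2 h and 9.06, 9.02, 8.98 and 8.82 at 0 h (limma adjusted p = 0.0492). Its groups overlapped, and its call was lost when only the 8 arrays were fitted and without any 1 of the 0 h arrays numbered 1, 2 and 3 or the 2 h arrays numbered 1, 3 and 4. MYD88 did not pass the test (-0.11 ± 0.09).

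Promoters of some genes that rose are shown because their letters can be set beside these rises. The stretches come from RefSeq on GRCh38.p14, run 5′ to 3′ on the strand of the gene, and have in capitals each match to GGANTTTCC on either strand, a common form of the NF-kB binding motif. Each is 100 bases long and ends 1 base before the start site, except ICAM1, which ends at position -101 from it.
ICAM1: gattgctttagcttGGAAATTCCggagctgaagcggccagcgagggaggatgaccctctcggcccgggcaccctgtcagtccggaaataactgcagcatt
IL6: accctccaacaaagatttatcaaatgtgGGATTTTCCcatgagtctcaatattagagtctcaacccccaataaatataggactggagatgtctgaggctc
TNFRSF9: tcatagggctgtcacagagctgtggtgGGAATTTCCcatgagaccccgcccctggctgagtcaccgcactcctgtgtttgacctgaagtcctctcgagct
TNFAIP3: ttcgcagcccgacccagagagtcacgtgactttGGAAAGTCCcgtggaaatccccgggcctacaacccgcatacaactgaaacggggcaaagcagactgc
NFKB1: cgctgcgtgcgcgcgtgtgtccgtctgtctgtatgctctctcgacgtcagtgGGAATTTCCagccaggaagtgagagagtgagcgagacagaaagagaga
REL: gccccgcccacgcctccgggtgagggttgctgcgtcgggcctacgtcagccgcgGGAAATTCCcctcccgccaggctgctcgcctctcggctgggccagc

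They lie at chr19:10270920-10271019 on the plus strand (ICAM1), chr7:22727100-22727199 plus (IL6), chr1:7940840-7940939 minus (TNFRSF9), chr6:137867159-137867258 plus (TNFAIP3), chr4:102501259-102501358 plus (NFKB1) and chr2:60881474-60881573 plus (REL). The first base of the match, read on the strand of the gene, stands at -186 in ICAM1, -72 in IL6, -73 in TNFRSF9, -67 in TNFAIP3, -48 in NFKB1 and -46 in REL, counted back from the start site. These 6 were picked because they carry the match. Among the 10 genes named by size from the 2 NF-kB lists, 8 had a promoter in the table and 3 of them had a match before the start. Among the 16 genes with the largest rises, 13 had a promoter in the table and 4 of them had a match before the start. Among the 16 with the largest falls 11 had a promoter and none had a match there. A match is rare, at 1.7% of measured genes in the wider window below, so 11 promoters are too few to show a lack.

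Over all genes, the window of 250 bases before to 50 after the start held GGANTTTCC in 15 of 65 promoters (23.1%) of genes that rose at least 4-fold and in 23 of 204 (11.3%) of those that rose at least 2-fold. The share was 58 of 1055 (5.5%) for all genes that rose, 6 of 1047 (0.573%) for all that fell and 162 of 9534 (1.7%) for all measured genes. Of 27305 promoters in the table, 1.64% had a match. The AP-1 motif TGANTCA, on both strands as well, was found in 9.23% of promoters of genes up at least 4-fold and 10.8% (22 of 204) of those up at least 2-fold. Its share was 7.2% for all that rose, 3.82% for all that fell, 11.8% (4 of 34) for those that fell at least 2-fold and 4.58% for measured genes. TATAAA was found in 20% of promoters of genes up at least 4-fold, 12.3% of those up at least 2-fold, 14.7% of those down at least 2-fold and 5.86% of measured genes. The median base composition of these sets was 64.3% G and C for genes up at least 4-fold and 65.7% for measured genes. No motif contains another, a match is not a binding site, and no test was made of these shares.

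**Figure D3:**
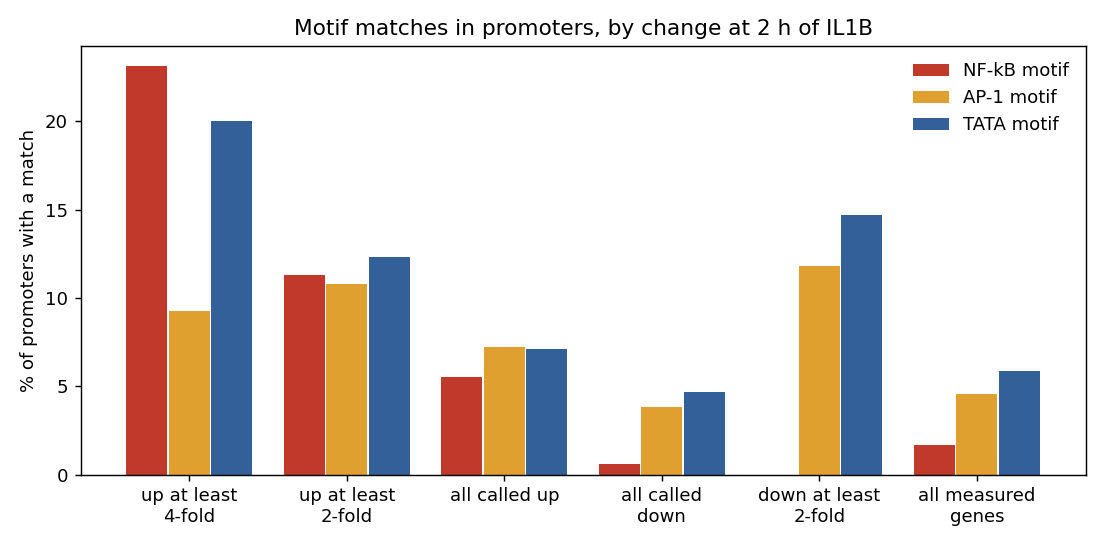
Bars are the share of promoters, in percent, with at least 1 match to the NF-kB, AP-1 or TATA motif on either strand, for sets of genes by their change at 2 h and for all measured genes. The NF-kB motif share is 23.1% in genes up at least 4-fold, 0.573% in all that fell and 1.7% in all measured genes.

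Of 18 adhesion genes measured, 11 rose and none fell (61.1% called, beside 20% of all probe sets). The median was 0.30, and 2 fell with the replicate number as a block. ICAM1, the endothelial and epithelial ligand of leukocyte integrins, read 13.17, 13.17, 13.16 and 12.90 at 2 h against 7.02, 6.62, 6.84 and 6.72 at 0 h (6.30 ± 0.11, 78.6-fold). The selectin SELE, best known from activated endothelium, read 9.63, 9.76, 9.71 and 8.97 at 2 h and 4.54, 4.53, 4.62 and 4.65 at 0 h. In both genes the 2 h array numbered 4 was the lowest of its group and still far above every 0 h array. VCAM1 and the integrin ITGB8 rose by 2.06 and 2.01.

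Innate defence and tissue remodelling genes rose in 15 of 18 and none fell (83.3% called, beside 20% of all probe sets). The median was 1.21. The soluble pattern receptor PTX3 rose by 4.65 ± 0.15 and the acute-phase protease inhibitor SERPINA3 by 4.06 ± 0.16. Mitochondrial superoxide dismutase, SOD2, read 11.64, 11.62, 11.63 and 11.55 at 2 h against 8.39, 8.33, 8.62 and 8.40 at 0 h (3.17 ± 0.06). The elastase inhibitor PI3 rose by 3.05 ± 0.22, the iron-withholding protein LCN2 by 1.82, the urokinase PLAU by 2.46 and complement C3 by 0.75. PTGS2, the inducible cyclooxygenase, was near the top of the scale in both groups, at 13.33, 13.41, 13.34 and 13.41 at 2 h against 12.08, 12.49, 12.41 and 12.08 at 0 h, and rose by 1.11 ± 0.08. Other genes among the 16 largest rises were TNFAIP6, a hyaluronan-binding protein (4.66 ± 0.16), OLR1, a scavenger receptor for oxidised lipoprotein (4.54 ± 0.17), and STX11, a syntaxin of vesicle fusion (4.84 ± 0.12).

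On a list of receptors for other cytokines, with the pattern receptors TLR3 and TLR6 included, 17 of 25 rose and 2 fell. The median was 0.61, and 76% were called, beside 20% of all probe sets. TNFRSF9, a costimulatory TNF receptor, read 10.63, 10.62, 10.66 and 10.34 at 2 h against 6.05, 6.00, 6.00 and 5.96 at 0 h (4.56 ± 0.11). Chains of both interferon receptors rose together, IFNAR2 by 1.88, IFNAR1 by 0.92, IFNGR1 by 1.77 and IFNGR2 by 1.29. CD40 rose by 1.50 ± 0.14 and IL18R1 by 1.00. The IL6 receptor chain IL6R went the other way, with 6.65, 7.16, 7.10 and 7.02 at 2 h and 8.45, 8.38, 8.75 and 8.46 at 0 h (-1.53 ± 0.10), in the same cells in which IL6 rose. TNFRSF1A, the main TNF receptor, fell by 0.32 on the log2 scale.

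Interferon factors and interferon-stimulated genes rose in 12 of 23 and none fell (52.2% called, beside 20% of all probe sets). Their median was 0.23. IRF1, a transcription factor of the interferon regulatory family, read 11.57, 11.56, 11.57 and 11.42 at 2 h and 7.81, 7.70, 7.69 and 7.54 at 0 h (3.85 ± 0.17). GBP2 and the viral RNA sensor IFIH1 rose by 1.76 ± 0.12 and 1.61 ± 0.15. The antiviral effectors were divided, with rises of 0.84 ± 0.16 for IFIT3 and 0.54 ± 0.15 for IFIT2, the call of IFIT2 being lost without the 0 h array numbered 2. Their relative IFIT1 did not pass the test (-0.17), nor did ISG15 (-0.07) and OAS2 (0.19). Among 16 apoptosis regulators, 8 rose and 1 fell (56.2% called, beside 20% of all probe sets), with a median of 0.25. The NF-kB-driven survival gene BCL2A1 rose by 3.62 ± 0.14 and CFLAR, an inhibitor of caspase 8 activation, by 1.56 ± 0.12, while the pro-death gene PMAIP1 rose by 1.75 ± 0.09 and the pro-death gene BMF fell by 0.85 on the log2 scale.

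Immediate-early factors split, with 13 of 26 risen, 3 fallen (61.5% called, beside 20% of all probe sets) and a median of 0.36. FOS, a subunit of AP-1, read 10.38, 10.63, 10.58 and 9.99 at 2 h and 11.90, 12.00, 11.89 and 11.61 at 0 h, a difference of -1.46 ± 0.16. Of the other AP-1 subunits on the list, JUN, FOSL1 and FOSL2 rose by 0.89, 1.10 and 1.12, while JUND (0.16 ± 0.09), JUNB (-0.09 ± 0.16) and FOSB (-0.12 ± 0.21) did not pass the test. JUND passed with the small nucleolar RNA mean as a covariate. EGR1, a classical immediate-early gene, did not differ beyond its spread (0.09 ± 0.09, limma adjusted p = 0.576), while its relative EGR3 rose by 1.34 ± 0.22. The stress factor ATF3 rose by 1.40 ± 0.18, CEBPD, a driver of acute-phase genes, by 1.97 ± 0.07, MAFF by 1.85 ± 0.10, KLF6 by 1.33 and KLF4 by 1.06. KLF2 and MYC fell by 0.56 and 0.30 on the log2 scale.

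Feedback regulators of MAP kinases were called in 14 of 15 (93.3%, beside 20% of all probe sets). Of these, 10 rose and 4 fell, and the list median was 0.57. The phosphatases of the stress kinases p38 and JNK, DUSP10, DUSP16 and DUSP8, rose by 1.99 ± 0.07, 1.77 ± 0.07 and 1.35 ± 0.11, and the ERK phosphatase DUSP6 by 1.27 ± 0.09. Other phosphatases of the same family fell, DUSP7 (-0.82 ± 0.12) and DUSP4 (-0.49 ± 0.06). The Sprouty family, inhibitors of receptor tyrosine kinase signals, was divided as well, with SPRY4 up by 1.15 ± 0.14 and SPRY2 (-1.08 ± 0.09) and SPRY1 (-0.45 ± 0.09) down. Of 13 mRNA decay genes, 5 rose and 2 fell (53.8% called, beside 20% of all probe sets), with a median of 0.02. Those that rose most degrade cytokine transcripts in other settings, ZC3H12C (2.29 ± 0.10), ZC3H12A, which encodes Regnase-1 (2.11 ± 0.14), and ZFP36, which encodes tristetraprolin (1.22 ± 0.20). TOB1, which recruits the deadenylase complex, fell, with 10.54, 10.56, 10.65 and 10.49 at 2 h and 11.71, 11.99, 11.96 and 11.78 at 0 h.

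**Figure D4:**
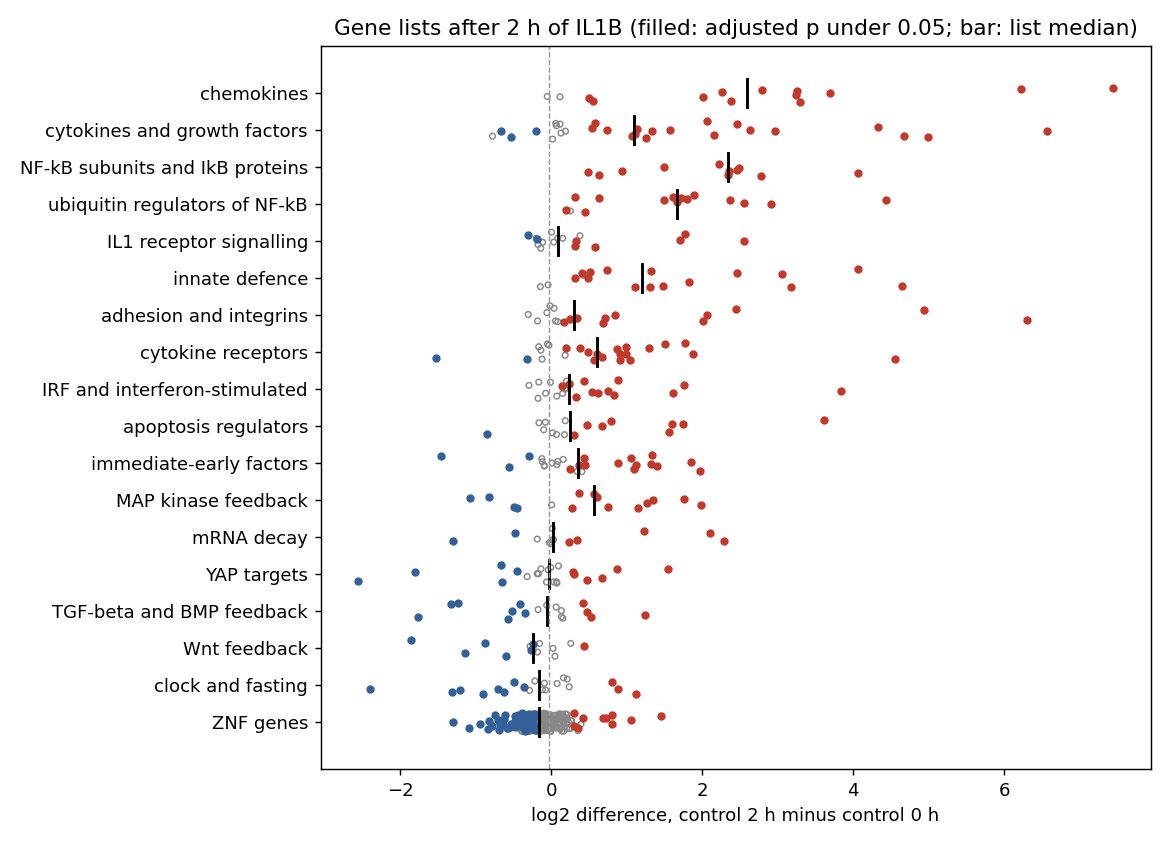
Each point is the log2 difference, control 2 h minus control 0 h, of 1 measured member of a gene list, filled where the adjusted p is under 0.05, with the list median as a bar and the median of all probe sets (-0.03) as a dashed line. The list medians run from 2.59 for chemokines and 2.34 for NF-kB subunits and IkB proteins to -0.24 for Wnt feedback genes.

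The 5 largest falls of named genes were those of CCN1, PDK4, RNF43, CCN2 and HILPDA. CCN1, a matrix-associated protein and YAP target, read 6.76, 6.94, 7.09 and 7.08 at 2 h against 9.86, 9.42, 9.41 and 9.41 at 0 h, which is 5.87-fold lower at 2 h (-2.55 ± 0.14, limma adjusted p = 1.59e-16). Its relative CCN2 read 8.85, 8.78, 8.81 and 9.18 at 2 h and 10.91, 10.76, 10.60 and 10.58 at 0 h (-1.81 ± 0.11). The YAP list as a whole did not move 1 way, with 6 of 22 risen and 5 fallen. Its median was -0.02, and 50% were called, beside 20% of all probe sets. Tissue factor, F3, rose by 1.55 ± 0.09 and FJX1 by 0.87, and ANKRD1 and AJUBA fell by 0.65 and 0.46 on the log2 scale.

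PDK4, a mitochondrial kinase that limits the oxidation of glucose carbon in fasting, read 8.60, 8.62, 8.33 and 8.01 at 2 h. At 0 h it read 10.79, 11.002, 10.79 and 10.56, so that it was 5.26-fold lower at 2 h. In its list of clock and fasting genes, 8 of 20 fell and 3 rose (55% called, beside 20% of all probe sets). The list median was -0.17. TSC22D3, a glucocorticoid-induced gene, fell by 1.31, the insulin receptor substrate IRS1 by 1.20, the clock output factor DBP by 0.91 and the clock repressor PER2 by 0.70 on the log2 scale. SGK1 (0.88 ± 0.08), ARRDC3 (0.80 ± 0.07) and BHLHE41 (1.12 ± 0.09) rose. HILPDA, a lipid droplet protein outside that list, fell by 1.76 on the log2 scale.

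In the TGF-beta and BMP list, 7 of 17 fell and 4 rose (64.7% called, beside 20% of all probe sets). Its median was -0.06. The inhibitory Smad SMAD7 differed by -1.32 ± 0.14, and the BMP-induced inhibitors of differentiation ID3 and ID2 by -1.23 ± 0.13 and -0.52. ID1 read 9.28, 9.07, 9.10 and 7.75 at 2 h against 10.76, 10.87, 10.67 and 9.93 at 0 h (-1.76 ± 0.33), and in each group the array numbered 4 was the lowest. The ligase SMURF2, which targets the receptors, rose by 1.24 ± 0.11. Of 14 Wnt feedback genes 6 fell and 1 rose (50% called, beside 20% of all probe sets). The median was -0.24, and 2 rose with the replicate number as a block. RNF43, a ligase that removes Wnt receptors, read 6.25, 6.63, 6.68 and 6.46 at 2 h against 8.26, 8.39, 8.39 and 8.37 at 0 h (-1.85 ± 0.13), and the secreted antagonist DKK1 fell by 1.13, the receptor FZD2 by 0.87 and AXIN2 by 0.60 on the log2 scale. The 1 that rose was CTNNB1, beta-catenin (0.44).

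Of 325 measured genes named ZNF, mostly zinc finger transcription factors, 91 fell (28%) and 10 rose, beside 9.77% and 10.3% of all probe sets, and the median was -0.16. Among the 68 whose mean level was at or above the median probe set, 21 fell (30.9%, against 9.35% of all such probe sets), and among the 257 below it 70 fell (27.2%, against 10.2%). With quantile normalization, 92 fell and 11 rose. ZNF57 read 5.88, 5.95, 5.75 and 5.62 at 2 h against 7.14, 7.07, 7.11 and 7.08 at 0 h (-1.30 ± 0.11), and ZNF703 and ZNF281 fell by 1.09 and 0.83 on the log2 scale. The 10 that rose included ZNF641 (1.45 ± 0.12), the antiviral factor ZNFX1 (1.06 ± 0.08) and ZNF217 (0.81 ± 0.08).

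Of 29 probe sets named for miRNA genes, 2 rose (6.9%, beside 10.3% of all probe sets) and none fell, and the 2 were MIR221 and MIR21. MIR221 read 7.66, 7.52, 7.22 and 7.26 at 2 h and 5.36, 5.73, 5.56 and 5.98 at 0 h (1.76 ± 0.34, limma adjusted p = 0.000142). MIR21 read 7.96, 8.45, 8.06 and 8.47 at 2 h against 7.60, 7.61, 7.20 and 7.42 at 0 h (0.78 ± 0.24, limma adjusted p = 0.0165). The call of MIR21 was lost without the 0 h array numbered 3 or the 2 h array numbered 2 or 4. These arrays do not tell a precursor or host transcript from a mature miRNA. The main mature forms from RefSeq on GRCh38.p14, with the seed at bases 2 to 8 in capitals, differ in their seeds.
hsa-miR-221-3p: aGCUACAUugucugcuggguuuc
hsa-miR-21-5p: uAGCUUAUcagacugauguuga

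Between 2 and 4 h of IL1B, 1940 probe sets (13.4%) were called, 948 higher at 4 h and 992 lower, in a comparison that shares the 2 h arrays with the one above. On the list of interferon factors and interferon-stimulated genes, 17 of 23 were higher at 4 h than at 2 h and 1 was lower. The counts beside these are 948 higher and 992 lower of all 14488 probe sets. SAMD9L was 0.89 above its 0 h level at 2 h and a further 1.66 ± 0.14 higher at 4 h (limma adjusted p = 1.22e-10), CXCL10 a further 1.63 ± 0.18 and IFIT3 a further 1.10 ± 0.16. The collagenase MMP1 was a further 1.47 ± 0.22 higher at 4 h and LAMP3, a lysosomal protein of mature dendritic cells and alveolar type II cells, a further 1.24 ± 0.09. The lymphocyte activation antigen CD69, EGR3 and the small GTPase RND1 were lower at 4 h than at 2 h by more than 1 log2 unit, at -1.41 ± 0.17, -1.37 ± 0.22 and -1.43 ± 0.15. Of the NF-kB list, 6 of 11 were lower at 4 h and 4 higher, beside 992 and 948 of all 14488 probe sets. NFKBID differed by -1.21 ± 0.07 and REL by -1.14 ± 0.08, while NFKB1 did not differ beyond its spread (0.02). CCN1 was 1.53 ± 0.14 higher at 4 h than at 2 h, and PDK4 1.08, whereas RNF43 was lower by a further 0.68 and SLITRK6, a neuronal transmembrane protein, by a further 1.47.

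Further hours of the control arm, each set against the same 0 h arrays, showed different courses for the genes of the 2 h response. CCL5 stood at 6.23 at 2 h, 6.73 at 4 h, 6.60 at 8 h and 6.63 at 10 h above its 0 h level. SELE stood at 4.93 at 2 h, 4.74 at 4 h, 0.89 at 8 h and 0.73 at 10 h, and PTX3 followed with 4.65, 4.39, 1.38 and 1.25. REL stood at 2.49 at 2 h, 1.35 at 4 h, 0.04 at 8 h and 0.56 at 10 h. These values share their 0 h arrays and were not tested against each other beyond 2 and 4 h.

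**Figure D5:**
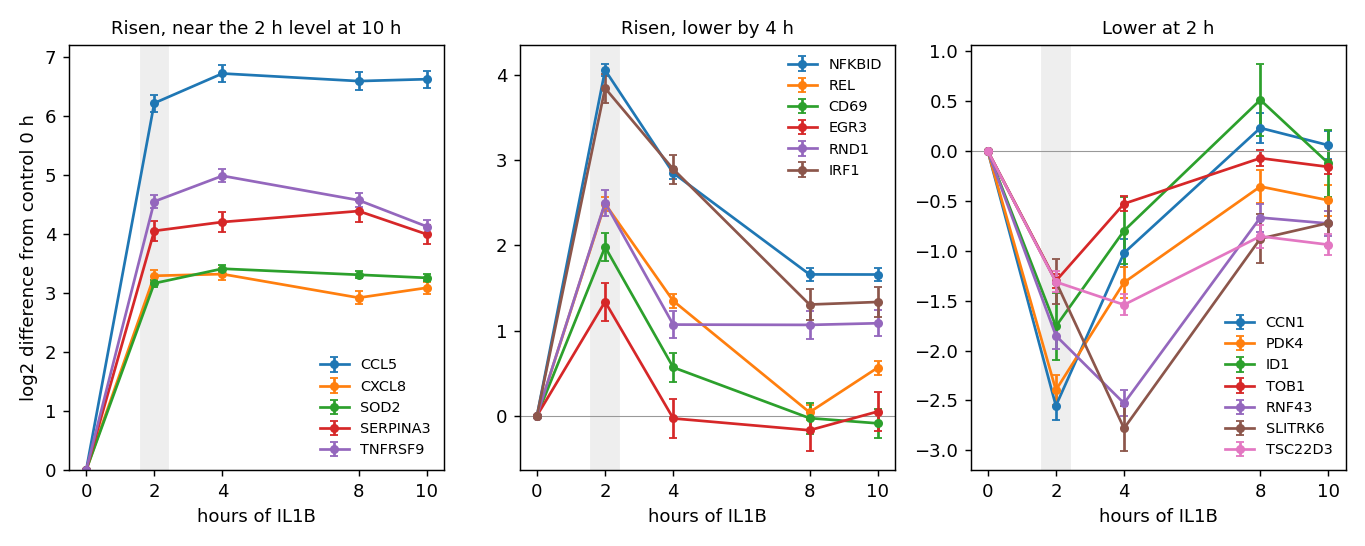
Lines join the log2 difference of each control group from control 0 h (vertical axis) by hours of IL1B (horizontal axis), with standard errors of the model and the 2 h point shaded. CCL5 lies at 6.23 at 2 h and 6.63 at 10 h, CD69 at 1.98 and -0.09, and CCN1 at -2.55 and 0.06.

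ORMDL3 read 7.15, 7.38, 7.11 and 7.11 on the control 2 h arrays and 7.36, 7.24, 7.18 and 6.91 on the control 0 h arrays, with no difference beyond the spread (0.02 ± 0.11, limma adjusted p = 0.953). In knockdown cells it averaged 5.15 ± 0.13 at 2 h (SD, n = 4) and 5.38 ± 0.17 at 0 h (SD, n = 3). The 2 h response of knockdown cells called 3392 probe sets (23.4%). Its means came from the knockdown arrays alone, but its spread came from the fit over all 38 arrays. The calls of the 2 arms are therefore not independent. Of the 1488 that rose in control cells, 1021 also rose in knockdown cells, 68.6% of the control list and 73.7% of the 1386 that rose in knockdown cells. Of the 1416 that fell in control cells, 799 fell in knockdown cells, 56.4% of the control list and 39.8% of the 2006 that fell in knockdown cells, and none of the called probe sets was called in the opposite direction. All 16 of the largest rises and all 16 of the largest falls in control cells were called in the same direction in knockdown cells.

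The difference of the 2 responses, knockdown minus control, was itself called for 4 probe sets (0.0276%), with 1836 at an unadjusted p under 0.05. TNFRSF9 read 10.71, 10.69, 10.70 and 10.80 on the knockdown 2 h arrays and 7.51, 7.06 and 7.76 on the knockdown 0 h arrays, beside 10.34 to 10.66 on the control 2 h arrays and 5.96 to 6.05 on the control 0 h arrays. Its response was smaller in knockdown cells by 1.27 ± 0.16 (difference -1.27, limma adjusted p = 4.8e-05), and the arms stood apart at 0 h. ATP2B4, a plasma membrane calcium pump, read 8.82, 8.74, 8.67 and 8.75 on the knockdown 2 h arrays and 7.53, 7.60 and 7.36 on the knockdown 0 h arrays, and its response was larger in knockdown cells by 0.67 ± 0.13 (limma adjusted p = 0.0425). The other 2 called probe sets had no single gene symbol. This count depended on few arrays, being 10 without the control 2 h array numbered 4 and 3 to 10 with any 1 array left out. It was 7 with the replicate number as a block, 27 without all arrays numbered 4 and 829 with array weights.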

How the data were processed

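The authors deposited log2 expression levels of 14488 probe sets on 38 arrays of total RNA. The submitters' processing notes name RMA, the Affymetrix Power Tools, build hg19 and limma 3.22.7, in no stated order. What decided which probe sets were kept is not stated. No further normalization was applied.

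The platform annotation gave 1 symbol to 12132 probe sets, several to 628 and none to 1728, and 12121 matched current records. Groups came from the titles. The tests used limma 3.58.1 in R 4.3.3, with 1 mean for each of 10 groups over 38 arrays. They were run on simulated data with independent noise, which lacks the deviations that arrays of the same number share. That run cannot show how the fit behaves with such deviations. The number of arrays limits the precision, and the smallest exact p with 4 against 4 would be 0.029. Control arrays of the same number at 2 h and 0 h deviated together (correlations 0.228, 0.244, 0.225 and 0.487), so the numbers were taken to pair samples. The main counts, standard errors and p-values nevertheless come from the fit without this pairing. A block by number was an alternative, with 3492 calls between 2 h and 0 h beside 2904. For each list, 1 probe set per gene was used, that with the highest mean.

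Named genes were ORMDL3, the 16 highest and 16 lowest called differences, up to 5 members per list by size, and called extremes of the other comparisons. Further genes named are list members, or the miRNA genes, added after their values were seen. Members and lists were chosen with earlier results of these data known. Lists are described by counts, without a set test.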

Additional observations from a re-analysis of the deposited data

Results flagged for a closer look

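In 22 of 312 groups of 4 arrays (156 named genes, 2 h and 0 h), 1 array lay apart from the other 3, with a gap to the nearest array above the 95% critical value of Dixon's test. Chance alone gives such a gap in about 1 in 20 groups. At 2 h the array numbered 4 was the low one for ICAM1 (gap 0.951 of the range), IRF1 (0.947), ID1 (0.863), ATF3 (0.861), TNFRSF9 (0.861), SELE (0.834) and ZNF281 (0.833). Also at 2 h, 1 array was low for TRAF1 (0.9) and ZNF217 (0.841), and 1 was high for FOSL1 (0.834) and ORMDL3 (0.832). At 0 h, 1 array was low for NFKBIZ (0.96), KLF2 (0.937), IL18R1 (0.911), FOSB (0.894) and STX11 (0.843). The high array at 0 h stood out for CCN1 (0.973), TRAF6 (0.885), DUSP8 (0.878), FZD2 (0.861), NFKB1 (0.85) and HBEGF (0.834).

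The 2 h response differed between knockdown and control cells for TNFRSF9 (-1.27, limma adjusted p = 4.8e-05) and ATP2B4 (0.67, limma adjusted p = 0.0425).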

How the results depend on the processing

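Leaving out probe sets below the median level gave 1792 calls between 2 h and 0 h and 1263 between 4 h and 2 h among 7244 probe sets tested. Without 1 array at a time, the counts were 2463 to 2822, 1595 to 1756, and 3 to 10 for the difference of the 2 h response between arms. That last count was 10 without the control 2 h array numbered 4, 7 with the replicate number as a block, 829 with array weights and 27 without all arrays numbered 4, an alternative chosen after seeing the data, and the cause was not tested. The block gave 3492 calls between 2 h and 0 h, only the 8 arrays 2581, trend and robust moderation 2890, array weights 3714, quantile normalization 3198 and subtracted medians 2979. ORMDL3 changed sign, without a call, to -0.073 without the 0 h array numbered 4, -0.049 without the 2 h array numbered 2 and -0.046 without all arrays numbered 4, and reached 0.079 without the 0 h array numbered 1. JUNB and FOSB, not called either, turned to 0.027 and 0.0065 without the 2 h array numbered 4 and were -0.225 and -0.24 without the 0 h array numbered 4. Of 2603 values of 156 named genes over 17 alternatives, 2574 kept their direction and side of the threshold, 19 lost the call, 5 gained it and 5 changed sign. Of the counts of list members that rose or fell, over the alternatives, 43 moved beyond a set margin and 737 did not. These include the alternative without dim probe sets, which removes list members. With the block, the falls in the epithelial list numbered 5, the falls in the adhesion list 2 and the rises in the Wnt list 2, and OTULIN was called. The block changed no other call of a named gene.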
